A study of Mus musculus with 5 samples.

Results

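The genes described here encode the pore-forming subunits of the voltage-gated potassium (Kv), sodium (Nav) and calcium (Cav) channels and of the hyperpolarization-activated HCN channels. They were chosen by name alone, as protein-coding mouse genes whose symbol was Kcna, Kcnb, Kcnc, Kcnd, Kcnq or Kcnh with digits, Scn with digits and a final a, Cacna1 with a letter, or Hcn with a digit. Kcnab genes, which encode auxiliary subunits, were left out. The rule gave 54 of the 55573 genes in the count tables and used no measured value.

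Voltage-gated channels open and close with the membrane potential and set the excitability of a neuron. Nav channels carry the upstroke of the action potential, Kv channels repolarize the membrane and limit repetitive firing, Cav channels admit the calcium that drives transmitter release and dendritic signaling, and HCN channels carry a depolarizing current at rest. Most of these genes are expressed in brain neurons, while a few are known mainly from heart, skeletal muscle, retina or sensory ganglia.

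RNA was sequenced from the right hemisphere of C57BL/6 female mice that carried GL261 cells, a mouse glioma line, in the right caudate nucleus-putamen. The cells expressed luciferase and mKate2 from a vector and were injected when the mice were 7 to 8 weeks old. The vehicle group (3 mice) received a dilution buffer, and the UMBO group (2 mice analysed here) received ultrasound-mediated blood-brain barrier opening, in which pulsed ultrasound is applied while microbubbles circulate. Both groups were treated on days 21 and 24 and were killed 24 hours after the last session. The paper describes equal groups, and a further UMBO library was not analysed here. Every mouse carried a tumor, so that no group gives the level in a healthy brain. Each hemisphere was read as bulk tissue, in which fewer neurons and less RNA per neuron cannot be told apart.

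Total counts ranged from 59736771 to 86164159 per library. The channel genes took 0.397% to 0.556% of the counts in the vehicle libraries, 0.405% in UMBO 1 and 0.215% in UMBO 2. UMBO 2 stood apart from the other 4 libraries: on the first principal component of log2 CPM, which held 78.7% of the variance, it lay at 134, while the others lay between -68.4 and 17.0. CPM here are TMM-normalized counts scaled to a library of 1000000 reads. Defining markers of the labelled tissue were present in every library, with summed levels of 4636 to 10865 CPM for 13 pan-neuronal genes and 5341 to 6214 CPM for 8 oligodendrocyte genes. Because UMBO 2 is 1 of only 2 treated libraries, many of the values of lists and of the genes described by library are also given without it.

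Levels per kilobase of exon separated the channel genes into 19 at 10 CPM per kb or more, 23 between 1 and 10, and 12 below 1, as means of the 5 libraries. Among the highest were Hcn2 at 47.0 CPM per kb, Kcna2 at 24.0 and Scn2a at 23.9. The lowest were genes known mainly from outside the brain, such as Scn4a of skeletal muscle at 0.0123 CPM per kb and Kcna7 at 0.00475 CPM per kb. These genes did not pass the filter on low counts, and the other 52 were tested. Kcna7 had 3, 0 and 0 reads in the vehicle libraries and 1 and 0 in UMBO. Scn4a had 5, 5 and 7 reads in the vehicle libraries and 14 and 3 in UMBO.

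Compared to vehicle, the fitted level in the UMBO group was lower for 48 of the 52 channel genes tested and higher for 4. That is 92.3% lower, beside 49.1% of all 23592 genes tested. The median log2 fold change was -0.68 over the channel genes and 0.01 over all genes. No channel gene was significant in the quasi-likelihood test of edgeR after Benjamini-Hochberg adjustment, nor was any other gene (0% called), and the smallest adjusted p was 0.497. Without adjustment, 7 channel genes (13.5%) were lower at p under 0.05, beside 2.06% of all genes, and 1 (1.92%) was higher, beside 5.3% of all genes. DESeq2 called 39 genes by its Wald test, none of them a channel gene. The levels of both UMBO libraries lay below every vehicle library in 18 channel genes (34.6%), beside 11.4% of all genes, and above every vehicle library in 1 (1.92%), beside 11.5%.

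The size of the difference came largely from UMBO 2. This library had the lowest level of all 5 in 48 of the 52 genes tested (92.3%), beside 39.8% of all genes. Relative to the vehicle mean of each gene on the log2 scale, the channel genes had medians of 0.22, -0.32 and 0.08 in vehicle 1, 2 and 3, of -0.23 in UMBO 1 and of -1.20 in UMBO 2. UMBO 1 was thus within the range of the vehicle libraries, and its level was above that of vehicle 2 in 31 genes and below it in 21. UMBO 1 lay below every vehicle library in 20 genes (38.5%), beside 17.9% of all genes, and above every vehicle library in 4 (7.69%), beside 18.6%. Without UMBO 2, the median log2 fold change of the channel genes was -0.24, and 1 gene was lower and none higher at an unadjusted p under 0.05 in the edgeR test, beside 0.71% of all genes lower. Without UMBO 1, it was -1.26, and 34 channel genes, all lower, were among 4543 genes called, beside 8.21% of all genes called lower. In that comparison the lone UMBO library was assumed to vary like the vehicle libraries.

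**Figure D1:**
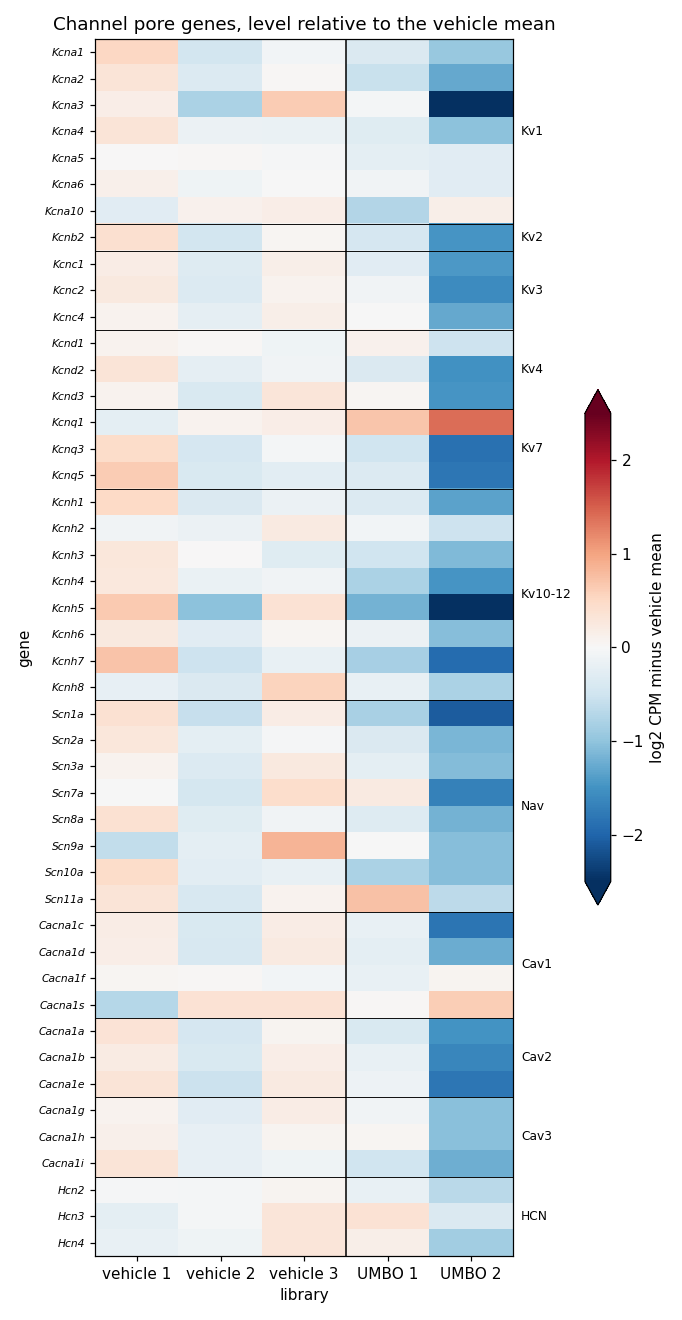
Level of 46 channel genes tested (rows, by family) in the 5 libraries (columns), as log2 CPM minus the vehicle mean of the gene; blue is lower and red is higher. UMBO 2 is the lowest of the 5 libraries in 42 of them, and UMBO 1 resembles vehicle 2, with medians of -0.23 and -0.32 over all 52 genes tested.

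In the values that follow, the adjusted p in the edgeR test was 0.497 for each gene given with a standard error (SE), unless another is stated, and none of the differences was significant. Log2 fold changes are UMBO over vehicle for all 5 libraries, unless a library is said to be left out.

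The Kv1 (shaker) channels act near the threshold of the action potential and along the axon. All 7 members tested were fitted lower, with a median log2 fold change of -0.63, or -0.31 without UMBO 2. Kcna2, the most abundant Kv1 gene per kb and a subunit of the axonal delayed rectifier, was measured at 430, 270 and 349 CPM in the vehicle libraries and at 235 and 142 CPM in UMBO. Its groups did not overlap, and the log2 fold change was -0.89 (SE 0.329, unadjusted p = 0.0354), or -0.57 without UMBO 2. Kcna4, which gives a rapidly inactivating A-type current, was at 36.1, 26.1 and 25.8 CPM in vehicle and at 23.6 and 14.1 CPM in UMBO. Its groups were also apart, by a smaller margin, with a log2 fold change of -0.63 (SE 0.292), or -0.31 without UMBO 2. Kcna5 was the other Kv1 gene with both UMBO libraries below vehicle, at 7.97 to 8.23 CPM in vehicle and at 6.88 and 6.66 CPM in UMBO. Kcna6 differed least among the well-expressed members, at 117, 99.7 and 108 CPM in vehicle and at 102 and 89.0 CPM in UMBO. An antisense gene, Gm26673, covers 39.6% of the exon length of Kcna6, and reads of the pair cannot be told apart where counting did not use strand. Kcna1 and Kcna10 had overlapping groups, with log2 fold changes of -0.68 and -0.31, or -0.41 and -0.94 without UMBO 2. So did Kcna3, at 2.43 to 6.63 CPM in vehicle and at 4.13 and 0.443 CPM in UMBO.

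Of the Kv2 (shab) channels, delayed rectifiers of the neuronal soma and dendrites, Kcnb2 was at 34.1, 18.8 and 26.6 CPM in vehicle and at 19.3 and 9.21 CPM in UMBO. UMBO 1 was just above vehicle 2, so that the groups overlapped, and the log2 fold change of -0.90 (SE 0.401) was -0.46 without UMBO 2.

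The Kv3 (shaw) channels allow fast-spiking neurons to fire at high rates. Kcnc1, Kcnc2 and Kcnc4 had overlapping groups and log2 fold changes of -0.76, -0.66 and -0.51, which were -0.29, -0.10 and -0.01 without UMBO 2.

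Among the Kv4 (shal) genes, which carry the A-type current of dendrites, Kcnd2 had the highest level per kb. It was at 147, 100 and 110 CPM in vehicle and at 91.7 and 41.3 CPM in UMBO. The groups did not overlap, with a log2 fold change of -0.84 (SE 0.381), or -0.38 without UMBO 2. Kcnd1 and Kcnd3 had overlapping groups, with log2 fold changes of -0.18 and -0.55, and without UMBO 2 these were 0.10 and 0.02.

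The Kv7 (KCNQ) family held the gene with the clearest opposite direction. Kcnq3 encodes a subunit of the M-current, a slow potassium current that restrains repetitive firing. Kcnq3 was at 300, 163 and 212 CPM in vehicle and at 155 and 60.2 CPM in UMBO. Both UMBO libraries were below vehicle, UMBO 1 by a small margin, with a log2 fold change of -1.06 (SE 0.474), or -0.53 without UMBO 2. Kcnq5 was at 59.0 to 119 CPM in vehicle and at 60.2 and 22.0 CPM in UMBO, with overlapping groups and a log2 fold change of -0.97, or -0.41 without UMBO 2.

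Kcnq1, the cardiac and epithelial member of the Kv7 family, was measured at 0.428, 0.549 and 0.579 CPM in vehicle and at 0.842 and 1.40 CPM in UMBO. These levels came from 32, 37 and 49 reads in vehicle and from 72 and 92 reads in UMBO. It was the only channel gene with both UMBO libraries above every vehicle library, with a log2 fold change of 1.11 (SE 0.379, unadjusted p = 0.0265), or 0.70 without UMBO 2. The antisense gene Kcnq1ot1 covers 2.96% of its exon length. The other genes fitted higher were Cacna1s, Scn11a and Hcn3, at 0.27, 0.18 and 0.02, with overlapping groups. Without UMBO 2 these were -0.05, 0.72 and 0.34.

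The Kv10 to Kv12 channels (EAG, ERG and ELK, Kcnh genes), among the larger families, had the most genes with an unadjusted p under 0.05. No difference between families was tested. All 8 Kcnh genes were fitted lower, 4 of them at that level, beside 2.06% of all genes lower at it. Their median was -0.79, or -0.45 without UMBO 2. Kcnh4, an ELK channel of the forebrain, had the smallest p of all channel genes. It was at 24.4, 18.1 and 19.0 CPM in vehicle and at 11.8 and 7.25 CPM in UMBO. Both UMBO libraries were clearly below the vehicle range, with a log2 fold change of -1.10 (SE 0.287, unadjusted p = 0.00855) and of -0.79 without UMBO 2. Kcnh3, a second ELK channel and the family's most abundant gene per kb, was at 128, 106 and 86.0 CPM in vehicle and at 75.0 and 49.0 CPM in UMBO. Its groups were apart, with a log2 fold change of -0.78 (SE 0.277, unadjusted p = 0.0297), or -0.51 without UMBO 2.

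Kcnh7, an ERG channel of neurons, was at 165, 70.3 and 89.5 CPM in vehicle and at 56.8 and 26.8 CPM in UMBO. The groups did not overlap, although vehicle 1 lay far above the other vehicle libraries. The log2 fold change was -1.37 (SE 0.491, unadjusted p = 0.0314), -0.92 without UMBO 2 and -0.94 without vehicle 1. Kcnh5, an EAG channel, had the largest fitted difference of the 52 genes. It was at 14.99, 4.63 and 12.2 CPM in vehicle and at 4.15 and 0.977 CPM in UMBO, and the log2 fold change was -2.04 (SE 0.775, unadjusted p = 0.0387). UMBO 1 was only just below vehicle 2, and without UMBO 2 the difference was -1.35. Kcnh1, Kcnh2, Kcnh6 and Kcnh8 had overlapping groups and log2 fold changes of -0.80, -0.29, -0.55 and -0.53, which were -0.39, -0.09, -0.16 and -0.25 without UMBO 2.

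**Figure D2:**
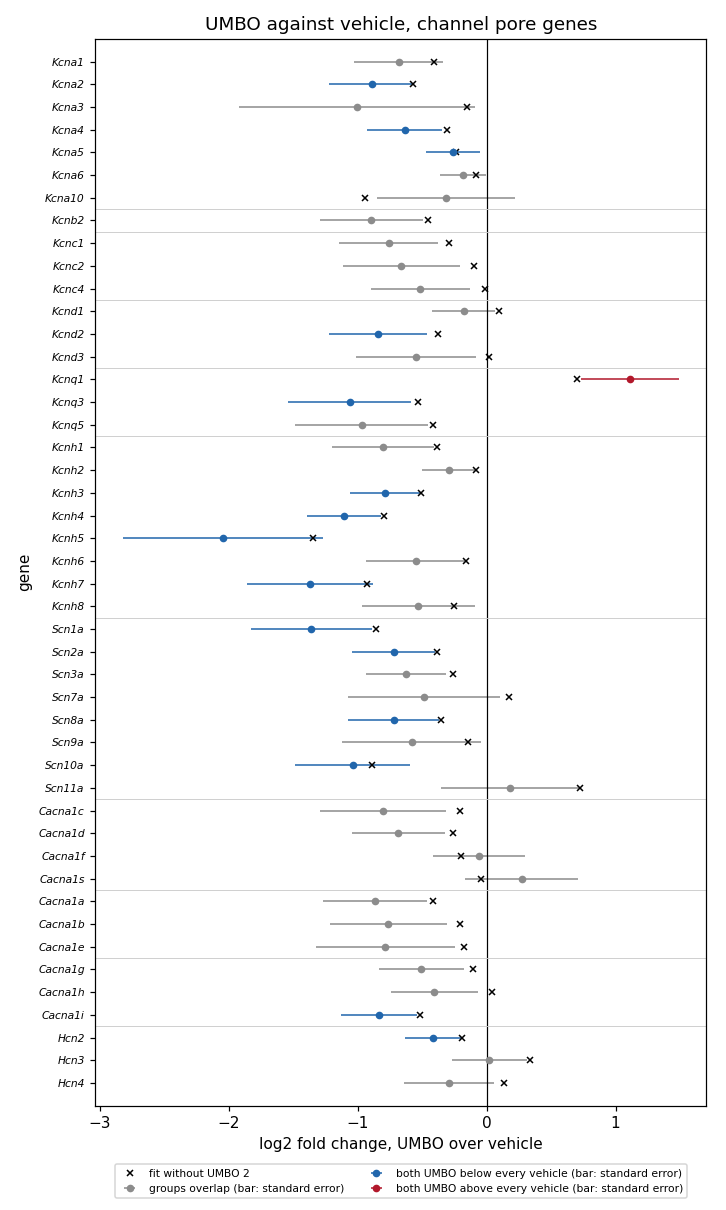
Fitted log2 fold change (UMBO over vehicle) of 46 channel genes tested, with bars of 1 standard error; blue marks genes with both UMBO libraries below every vehicle library, red the reverse, grey overlapping groups, and crosses the fit without UMBO 2. The 15 blue genes lie to the left of 0, Kcnq1 is the red gene at 1.11, and most crosses lie closer to 0 than the points.

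The stretches before the start of Kcnh7, Kcnh5 and Cacna1i are shown because these are the channel genes with an unadjusted p under 0.05 whose 250 bases before the RefSeq start lie outside every annotated exon. They run 5′ to 3′ on the strand of the gene (RefSeq, GRCm38.p6), and capitals mark the GC box GGGCGG or its complement CCGCCC. Kcnh7 lies at chr2:63184288-63184537 on the minus strand, Kcnh5 at chr12:75177333-75177582 on the minus strand and Cacna1i at chr15:80286988-80287237 on the plus strand.
Kcnh7: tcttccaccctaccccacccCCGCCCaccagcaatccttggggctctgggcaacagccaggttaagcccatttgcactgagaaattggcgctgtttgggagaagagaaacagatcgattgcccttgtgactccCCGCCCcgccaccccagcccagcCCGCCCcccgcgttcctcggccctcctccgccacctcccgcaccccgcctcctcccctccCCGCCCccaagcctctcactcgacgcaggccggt
Kcnh5: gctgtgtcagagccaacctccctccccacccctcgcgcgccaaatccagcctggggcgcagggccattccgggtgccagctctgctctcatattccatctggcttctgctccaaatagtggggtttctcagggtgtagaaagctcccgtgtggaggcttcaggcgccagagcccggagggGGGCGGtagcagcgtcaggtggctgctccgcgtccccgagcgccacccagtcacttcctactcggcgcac
Cacna1i: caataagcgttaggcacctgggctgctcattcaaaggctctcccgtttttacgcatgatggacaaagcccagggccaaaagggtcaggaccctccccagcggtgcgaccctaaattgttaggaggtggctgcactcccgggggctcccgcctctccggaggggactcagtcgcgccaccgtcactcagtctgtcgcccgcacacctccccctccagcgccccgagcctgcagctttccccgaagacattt

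The stretch of Kcnh7 held 4 GC boxes, that of Kcnh5 held 1 and that of Cacna1i held 0, so the letters differed among genes with differences in the same direction. A window from 250 bases before to 50 bases after the start was given for 37 of the 54 channel genes. A GC box on either strand was found in 22 of the 37 (59.5%), beside 10324 of 27025 genes (38.2%). The TATAAA motif on either strand was found in 2 of the 37 (5.41%), Cacna1d and Scn2a, beside 15.7% of all genes. The median number of CG dinucleotides in the window was 20 for the channel genes and 8 for all genes. These are descriptions of the sequence and no factor binding was measured.

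The Nav genes encode the sodium channels of the action potential, and Scn2a, Scn8a and Scn1a made up most of their summed CPM. Of 9 tested, 8 were fitted lower, 5 with both UMBO libraries below every vehicle library, beside 11.4% of all genes. The median was -0.63, or -0.25 without UMBO 2. Scn1a, the main Nav gene of fast-spiking inhibitory neurons, was at 194, 100 and 168 CPM in vehicle and at 85.0 and 35.1 CPM in UMBO. The groups were apart, with a log2 fold change of -1.36 (SE 0.470, unadjusted p = 0.0279), or -0.85 without UMBO 2. Scn2a, the most abundant per kb and a channel of excitatory axons, was at 436, 299 and 347 CPM in vehicle and at 276 and 162 CPM in UMBO. Its groups were also apart, by less, with a log2 fold change of -0.72 (SE 0.320), or -0.38 without UMBO 2. Scn8a, which carries current at the axon initial segment and nodes, was at 291 to 466 CPM in vehicle and at 284 and 158 CPM in UMBO, a log2 fold change of -0.72, or -0.36 without UMBO 2.

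Scn1a therefore took a smaller share of the Nav RNA in the UMBO libraries. Its share of the summed Nav CPM was 16.4%, 13.1% and 17.5% in vehicle and 11.8% and 8.90% in UMBO. The share of Scn2a was 36.1% to 39.2% in vehicle and 38.2% and 41.0% in UMBO, and that of Scn8a was 34.9% to 39.4% and then 39.3% and 39.9%. The difference in the share of Scn1a was not tested. Of the rarer Nav genes, Scn10a of sensory neurons was at 0.535, 0.312 and 0.331 CPM in vehicle and at 0.211 and 0.168 CPM in UMBO, with a log2 fold change of -1.04 (SE 0.449), or -0.89 without UMBO 2. It rested on 40, 21 and 28 reads in vehicle and on 18 and 11 reads in UMBO. Scn3a, Scn7a and Scn9a had overlapping groups and were fitted lower, at -0.63, -0.49 and -0.58, and without UMBO 2 at -0.26, 0.17 and -0.15, so that the sign of Scn7a turned.

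The high-voltage Cav genes were fitted lower with overlapping groups in each of their well-expressed members. Cacna1a, the P/Q-type pore of presynaptic terminals and the most abundant Cav2 gene per kb, was at 240, 142 and 198 CPM in vehicle and at 145 and 67.2 CPM in UMBO. UMBO 1 was level with vehicle 2, and the log2 fold change of -0.87 (SE 0.402) was -0.41 without UMBO 2. Cacna1b (N-type) and Cacna1e (R-type) were at -0.76 and -0.78, or -0.21 and -0.18 without UMBO 2. In the Cav1 (L-type) family, Cacna1d, a pore of neurons and endocrine cells, was at 75.0, 50.1 and 78.0 CPM in vehicle and at 56.3 and 28.0 CPM in UMBO. Its groups overlapped, with a log2 fold change of -0.68 (SE 0.358), or -0.26 without UMBO 2. Cacna1c, the other brain L-type gene, was at 82.6 to 123 CPM in vehicle and at 94.9 and 30.5 CPM in UMBO. Its log2 fold change was -0.80, or -0.20 without UMBO 2. Cacna1f of the retina and Cacna1s of skeletal muscle were at 0.304 to 0.366 CPM and 1.15 to 2.90 CPM over the 5 libraries, with overlapping groups.

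The Cav3 (T-type) channels open near the resting potential and support burst firing. Cacna1i was the Cav gene with the smallest p. It was at 113, 78.3 and 83.6 CPM in vehicle and at 63.8 and 38.7 CPM in UMBO, so that the groups did not overlap. The log2 fold change was -0.84 (SE 0.292, unadjusted p = 0.0288), or -0.52 without UMBO 2. Cacna1g, the most abundant Cav3 gene per kb, was at 121, 93.6 and 131 CPM in vehicle and at 107 and 55.1 CPM in UMBO. UMBO 1 was inside the vehicle range, with a log2 fold change of -0.51 (SE 0.328, adjusted p = 0.499), or -0.10 without UMBO 2. Cacna1h was at -0.41, or 0.04 without UMBO 2.

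The HCN genes had the smallest median of the families, -0.35 for 4 genes, and 0.00 without UMBO 2. Hcn2, the highest of all channel genes per kb, was at 164, 162 and 175 CPM in vehicle and at 146 and 104 CPM in UMBO. The vehicle libraries were close together and both UMBO libraries were below them. The log2 fold change was -0.42 (SE 0.219), or -0.19 without UMBO 2. Hcn3 and Hcn4 were at 0.02 and -0.29 with overlapping groups, and at 0.34 and 0.13 without UMBO 2. The gene Pklr on the other strand covers 17.1% of the exon length of Hcn3.

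**Figure D3:**
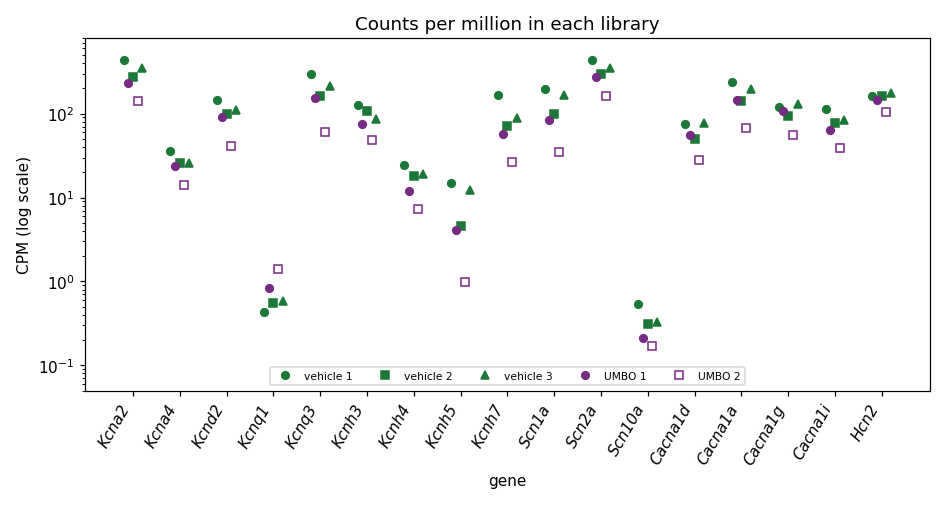
CPM (log axis) of 17 channel genes described by library, with vehicle libraries in green and UMBO libraries in purple, 1 point per library. UMBO 2 (open squares) is the lowest point of each gene except Kcnq1, where it is the highest at 1.40 CPM.

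Of the families whose shares of the summed CPM of the channel genes are given here, Nav genes took 18.8% to 19.5% in vehicle and 17.9% and 20.1% in UMBO. HCN genes took 4.57% to 6.06% in vehicle and 6.09% and 7.56% in UMBO, and Cav3 genes 5.11% to 5.97% and then 6.05% and 6.53%, above every vehicle library in both families. In UMBO 2, Kv1 genes took 14.4%, against 10.8% to 11.4% in vehicle and 10.3% in UMBO 1, and Cav2 genes took 9.81%, against 11.3% to 13.4% in vehicle, a range that held UMBO 1. By level, the 19 genes at 10 CPM per kb or more were all fitted lower, with a median of -0.76, and 9 had both UMBO libraries below vehicle. The 23 genes between 1 and 10 CPM per kb had a median of -0.68, with 22 lower and 8 below vehicle. Of the 10 tested genes under 1 CPM per kb, 7 were lower and 1 was below vehicle, with a median of -0.40. Over all genes tested, 49.1% were fitted lower and 11.4% had both UMBO libraries below every vehicle library.

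The lists of auxiliary subunits were also lowest in UMBO 2. Of the Kv auxiliary genes, 14 of 15 were tested and 11 were fitted lower, with a median of -0.49 (-0.21 without UMBO 2). At an unadjusted p under 0.05, 2 were lower and 2 higher, beside 2.06% and 5.3% of all genes. Both UMBO libraries were below vehicle in 8 and above in 2, beside 11.4% and 11.5% of all genes. Kcnab3, a cytoplasmic beta subunit of Kv1 channels, was at 68.7, 47.5 and 50.3 CPM in vehicle and at 31.0 and 23.7 CPM in UMBO, with a log2 fold change of -1.02 (SE 0.241, unadjusted p = 0.00552), or -0.84 without UMBO 2. Kcne1l (Kcne5), a small membrane subunit that modulates Kv7 channels, went the other way, at 3.58, 5.76 and 7.52 CPM in vehicle and at 12.3 and 11.2 CPM in UMBO. Its log2 fold change was 1.06 (SE 0.341, unadjusted p = 0.0208), or 1.13 without UMBO 2. Both genes had groups apart, and UMBO 1 and UMBO 2 were close to each other in both. The silent Kv subunits, which only work in heteromers, were fitted lower in 9 of 9 tested, with a median of -0.68 (-0.28 without UMBO 2) and none at an unadjusted p under 0.05. Kcnv1 had the smallest p among them, with a log2 fold change of -1.07 (SE 0.505), or -0.51 without UMBO 2.

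All 9 Nav auxiliary and anchoring genes were fitted lower, with a median of -0.66 (-0.13 without UMBO 2). Beside 2.06% of all genes, 1 of them was lower at an unadjusted p under 0.05. This was Scn4b, a beta subunit with high expression in striatal neurons, at 315, 253 and 160 CPM in vehicle and at 96.2 and 96.3 CPM in UMBO. The UMBO libraries were alike and below all vehicle libraries, with a log2 fold change of -1.33 (SE 0.326, unadjusted p = 0.00642), and the value without UMBO 2 was the same to 2 decimals. Of the 16 Cav auxiliary genes, 15 were fitted lower, with a median of -0.49, or -0.24 without UMBO 2. At an unadjusted p under 0.05, 3 of them were lower, beside 2.06% of all genes. Cacng3, a member of the gamma family that also traffics AMPA receptors, was at 112, 80.9 and 79.6 CPM in vehicle and at 61.0 and 34.1 CPM in UMBO, a log2 fold change of -0.93 (SE 0.313), or -0.57 without UMBO 2. Cacng6 was the Cav auxiliary gene fitted higher, at 0.32 (adjusted p = 0.606). Pex5l, which binds HCN channels, was at -0.89 (SE 0.431), or -0.43 without UMBO 2.

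Other receptor and channel genes were also mostly fitted lower. Of 37 ionotropic glutamate and GABA-A receptor genes, 34 were tested and 32 were fitted lower, with a median of -0.60, or -0.21 without UMBO 2. Both UMBO libraries were below vehicle in 9 of these receptor genes, beside 11.4% of all genes. The smallest p was that of Gabrd, an extrasynaptic GABA-A subunit, with a log2 fold change of -0.91 (SE 0.263, unadjusted p = 0.0137), or -0.90 without UMBO 2. The smallest p among the 2 fitted higher was that of Grik4, at 0.08 (adjusted p = 0.840). Of 37 other potassium channel pore genes (inward rectifiers, two-pore-domain and calcium- or sodium-activated channels), 33 were tested, 26 were lower and 7 higher. Their median was -0.49, or -0.11 without UMBO 2. Both UMBO libraries were below vehicle in 8 of them and above in 3, beside 11.4% and 11.5% of all genes. The smallest p in each direction was that of Kcnk4, at -1.04 (SE 0.382), and of Kcnk6, at 0.79 (SE 0.293), which were -0.72 and 0.54 without UMBO 2. No difference between these lists and the voltage-gated pores was tested.

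Neuronal markers were lower in UMBO 2 as well, and the size depended on the marker list. The 13 pan-neuronal markers had medians of 0.18, -0.06 and -0.12 in vehicle 1, 2 and 3, of -0.11 in UMBO 1 and of -0.65 in UMBO 2, on the same log2 scale on which the channel genes were at -1.20 in UMBO 2. Of these markers, 11 were fitted lower and 5 had both UMBO libraries below vehicle, beside 11.4% of all genes. Their median log2 fold change was -0.42, or -0.13 without UMBO 2. The 6 markers of glutamatergic neurons were lower still in UMBO 2, with a median of -1.33, while they were at 0.58, -0.24 and -0.46 in vehicle and at 0.07 in UMBO 1. Those of GABAergic neurons were at -0.46 in UMBO 2 and -0.24 in UMBO 1. The summed CPM of the channel genes was 56.1%, 49.4% and 62.3% of that of the pan-neuronal markers in vehicle, 50.2% in UMBO 1 and 42.3% in UMBO 2. UMBO 1 was thus inside the vehicle range and UMBO 2 below it. Relative to the median of these markers, the median log2 fold change of the channel genes was -0.26.

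Proliferation genes and markers of monocytes and macrophages moved in the opposite direction in the same library. The summed level of 10 proliferation genes was 49.97, 108 and 36.5 CPM in vehicle, 114 CPM in UMBO 1 and 465 CPM in UMBO 2. That of 8 monocyte and macrophage genes was 25.8, 123 and 49.4 CPM in vehicle, 90.5 CPM in UMBO 1 and 435 CPM in UMBO 2. All 10 proliferation genes and all 8 macrophage genes were fitted higher, and none was at 0 in any library. Their median log2 fold changes were 2.13 and 1.85, or 0.85 and 0.14 without UMBO 2. The summed level of the channel genes was 6097, 3913 and 5097 CPM in vehicle and 4035 and 1962 CPM in UMBO. UMBO 2, with the highest sums of both marker lists, had the lowest sum of channel genes. Vehicle 1 was above vehicle 3, and UMBO 1 above vehicle 2, in the sums of proliferation genes and of channel genes alike. In the sums of macrophage genes, both of these orders were reversed. The part of these cells in the difference of the channel genes was not tested. Microglia markers had both UMBO libraries above vehicle in 6 of 8 genes, beside 11.5% of all genes. Oligodendrocyte and astrocyte markers had median log2 fold changes of -0.04 and 0.03. In UMBO 2 alone, relative to the vehicle mean, their medians were -0.17 and -0.36. Astrocyte markers were at 0.23 in UMBO 1. Their summed level was 2188 CPM in UMBO 2, below the 3604 to 5009 CPM of vehicle. Muscle and retina markers stayed at summed levels of 7.55 to 10.9 CPM and 3.41 to 5.18 CPM.

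Striatal markers followed another order, with medians of 0.26, 0.18 and -0.44 in vehicle, -0.81 in UMBO 1 and -0.43 in UMBO 2. Of the 10 genes, 8 were fitted lower and 6 had both UMBO libraries below vehicle, beside 11.4% of all genes. The summed level of the 10 genes was 940 to 1532 CPM in vehicle and 809 and 1052 CPM in UMBO. Among the channel genes and their partners, Scn4b was as low in UMBO 1 as in UMBO 2. Kcnh4 had a difference of -0.79 without UMBO 2, beside -0.83 for the median of the striatal list. Unlike that list, Kcnh4 was lower in UMBO 2 (-1.48 relative to the vehicle mean) than in UMBO 1 (-0.78). Scn1a, Kcnh7 and Kcnh5 also had differences of this size or larger without UMBO 2, at -0.85, -0.92 and -1.35. So did Scn10a and Kcna10, which had few reads, at -0.89 and -0.94. The part of the dissected striatum or of the tumor site in these values was not tested.

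**Figure D4:**
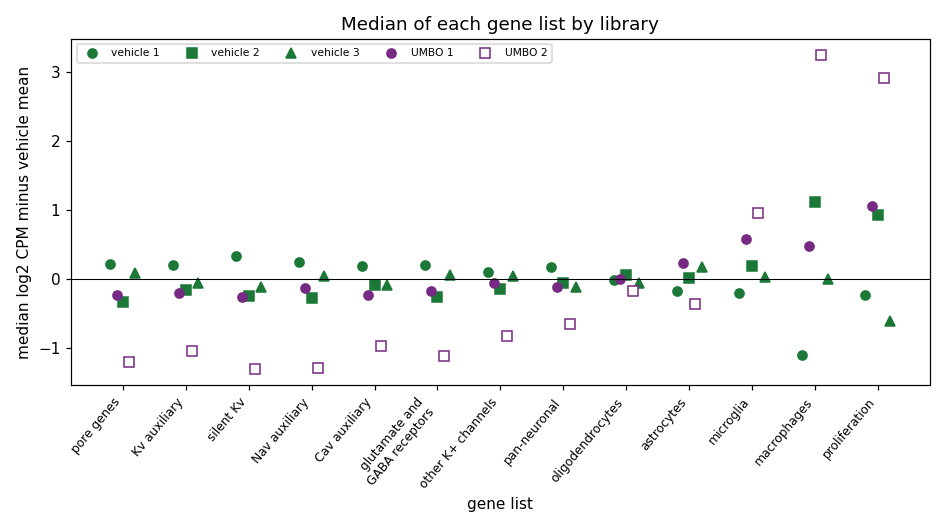
Median of each gene list in each library, as log2 CPM minus the vehicle mean of each gene; vehicle libraries are green and UMBO libraries purple. In UMBO 2 (open squares) the pore genes are at -1.20 and the pan-neuronal markers at -0.65, while macrophage and proliferation markers are at 3.25 and 2.90; UMBO 1 lies within the vehicle range for the pore genes, at -0.23.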

How the data were processed

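The authors mapped the reads with STAR 2.7.2a to GRCm38 and deposited raw counts per gene, 1 table per library, without normalization, per the labels and the submitters' processing notes. The annotation release and the strand setting of the counting are not given in the sources used here. Groups were taken from the sample titles (3 vehicle, 2 UMBO). The paper describes 6 mice in 2 groups, of which 5 libraries were analysed here. Symbols and positions came from GENCODE M21, which has a symbol for 55394 of the 55573 identifiers. The identifiers with no symbol held 0.101% of a library's counts or less.

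Counts were normalized by TMM, filtered with filterByExpr and tested with edgeR 4.0.16 in R 4.3.3 (quasi-likelihood, Benjamini-Hochberg over 23592 genes, threshold 0.05). The common dispersion was 0.118. Log2 CPM used a prior count of 2. DESeq2 1.42.0, other scalings and filters, a replicate block and leaving out each library were alternatives. With 59736771 to 86164159 counts per library, precision was limited by the number of mice, and by reads for genes under 1 CPM. The labels name separate mice. Each p-value sets the difference between the groups against the spread between these libraries, which was estimated partly from all genes tested.

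The rule for the channel genes used names only, but this rule and the gene lists were set with earlier results of these data known. Values are given, in each family, for the gene with the highest level per kb and the gene with the smallest p, and for the 15 genes with the smallest p among those with an unadjusted p under 0.05 or groups apart. From each partner list, the gene with the smallest p in each direction is named. Some channel genes enter the counts and medians but are not reported here by name. The remaining genes are given by their fold changes or ranges, and Kcna5, Kcna6 and other genes with values outside this rule were chosen after their values were seen.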

Additional observations from a re-analysis of the deposited data

How the results depend on the processing

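Leaving out a library and adding a replicate block moved the counts most. Over the fits that each lacked 1 library, the channel genes' median ranged from -1.26 (without UMBO 1) to -0.24 (without UMBO 2), the channel genes at an unadjusted p under 0.05 from 1 to 41 (8 with all libraries), those with groups apart from 19 to 50, the channel genes called from 0 to 34 and all genes called from 0 to 4543, the upper ends each without UMBO 1. Without vehicle 2, groups were apart in 41 channel genes, while 27.6% of all genes were below and 30.8% above (41.3% and 42.5% without UMBO 1). With all libraries, the 8 channel genes at an unadjusted p under 0.05 in the edgeR test stood beside 7.37% of all genes. Without vehicle 1, 2 and 3 there were 1, 12 and 2, beside 1.28%, 11.6% and 1.88% of all genes. In each of these fits 0 genes were called. The upper ends came from a fit with a lone UMBO library, which was assumed to vary like the vehicle libraries. With no filter, 24 channel genes had an unadjusted p under 0.05 (10.1% of all genes). With the Wald test of DESeq2 16 did (6.77% of all genes) and 39 genes were called. Relative to the pan-neuronal markers the median was -0.26, and Hcn2 reversed to 0.0068, while the other channel genes that the naming rule chose kept their direction under the alternatives run. The cause of these shifts was not tested. Scaling by library size alone moved the median of all genes from 0.01 to 0.13 and that of the channel genes to -0.57.

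With the replicate number as a block, 20 channel genes, all lower, were among 2337 genes called (9.91% of all genes), of which 909 were lower. In that fit 37 channel genes had an unadjusted p under 0.05, beside 26% of all genes. Only 2 numbers are shared between the groups and the labels do not say that a number marks a shared litter or day. The deviations of same-numbered libraries correlated at 0.453 and 0.760. With 2 UMBO libraries, these values mirror those of the same vehicle libraries with the other UMBO library (-0.453 and -0.760). Vehicle 3, which shares no number with a UMBO library analysed here, correlated at 0.521 with UMBO 1 and at -0.521 with UMBO 2. The median of UMBO 1 (-0.23) was within 1 SD (0.285) of the vehicle medians.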
